A study of Mus musculus with 28 samples.

Results

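The genes described here are the transcriptional arm of the Hippo pathway and some of its read-outs: the co-activators Yap1 and Wwtr1 (which encodes TAZ), the DNA-binding factors Tead1, Tead2, Tead3 and Tead4, and Ankrd1, Amotl2, Lats2 and Ajuba. They were chosen by symbol in the deposited table of raw read counts, and all 10 were found among its 54429 genes. The counts come from O9-1 cells, a mouse cranial neural crest line, the embryonic cells that form much of the face, including the palate. There were 28 polyadenylated RNA libraries in 8 groups, with 4 libraries in each group kept at 21% O2 (normoxic) and 3 in each group kept at 0.5% O2 (hypoxic). Proliferating cells were held in DMEM conditioned by STO fibroblasts, with 15% fetal calf serum, antibiotics, non-essential amino acids, beta-mercaptoethanol, 25 ng/ml bFGF and 5 ng/ml LIF. Chondrocyte cultures spent 3 days in the osteoblast medium and then 7 days as micromasses on Matrigel in alpha-MEM with 5% serum, antibiotics, insulin, transferrin and selenium, 0.1 µM dexamethasone, 10 ng/ml TGF-beta3 and 50 ng/ml BMP-2. Osteoblast cultures spent 10 days in alpha-MEM with 10% serum, 10 mM beta-glycerophosphate, 0.1 µM dexamethasone and 100 ng/ml BMP-2. Smooth muscle cultures spent 3 days in DMEM with 10% serum, antibiotics and no named inducer. The groups of a lineage at the 2 oxygen levels shared the same medium, and each differentiated group differed from the proliferating group in medium and time in culture as well as in lineage.

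In the Hippo pathway, a cascade of MST and LATS kinases phosphorylates YAP and TAZ, which are then held in the cytoplasm or degraded. When the cascade is off, as in spread or mechanically loaded cells, YAP and TAZ enter the nucleus and act through TEAD factors, since they cannot bind DNA themselves. Several targets, such as the kinase gene Lats2 and the angiomotin gene Amotl2, encode inhibitors of YAP, so that the pathway feeds back on itself. This control acts largely on the proteins, and transcript levels do not measure where YAP and TAZ are in the cell.

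Library totals ran from 19.9 to 64.7 M counts, with a median of 26.8 M (M being 1000000), and levels are given as CPM, counts per 1000000 after TMM scaling. TMM assumes that the bulk of genes change little. That assumption was not tested, and most genes passed the test for a difference in most comparisons below. The labels do not say that replicates were separate cultures, so that p-values measure only the spread between these libraries, which may be technical. The 3 hypoxic smooth muscle libraries stood apart from the other 25. Mitochondrial ribosomal RNA took 11.6% to 13.3% of their counts against at most 0.0889% elsewhere, and their TMM factors were 0.505 to 0.533 against 0.901 to 1.29 elsewhere. Their 6 smooth muscle markers summed to 95.1 to 119 CPM, close to the 94.3 to 103 CPM of normoxic proliferating cells. That sum lay below the 191 to 195 CPM of hypoxic proliferating cells and far below the 3580 to 4044 CPM of normoxic smooth muscle cultures. The same markers were not particular to that lineage: they summed to 3648 to 5176 CPM in normoxic osteoblast cultures and to 1894 to 2535 CPM over the chondrocyte and hypoxic osteoblast cultures. In the hypoxic smooth muscle group 3 of these 6 markers had a mean of at least 1 CPM, against all 6 in the normoxic one. Lmod1 had at most 0.299 CPM and Myh11 at most 1.35 CPM in the hypoxic smooth muscle libraries. Myh11 had few counts anywhere, 599 in all 28 libraries. For the hypoxic smooth muscle cultures the data thus go against the label, which is kept here as a name. Of 5 haematopoietic markers, Cd68 was at 32.7 to 36.5 CPM in these libraries while Tyrobp and Cd52 were at 0, and the part of this in any result was not tested. The osteoblast markers summed to 64.7 to 147 CPM in normoxic osteoblast cultures against 61.3 to 71.2 CPM in normoxic proliferating cells, so that this label also rests on little, whereas hypoxic osteoblast cultures had 373 to 402 CPM. Chondrocyte cultures had more of these markers than either, 1104 to 2598 CPM at 21% O2 and 785 to 1271 CPM at 0.5% O2. Hypoxic osteoblast cultures also had the highest sum of 5 adipocyte markers, 54.7 to 59.6 CPM against at most 16.6 CPM elsewhere, with Adipoq, Plin1 and Cidec low or at 0 and their part in any result not tested. Chondrocyte markers summed to 2819 to 8488 CPM in normoxic and 845 to 1260 CPM in hypoxic chondrocyte cultures. The 6 neural crest markers summed to 741 to 3058 CPM over all libraries, and 5 of them had a mean of at least 1 CPM in every group. The exception was Sox10, a marker of early neural crest, which was at or near 0 in every library.

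TEAD factors bind the letters CATTCC, which read GGAATG on the opposite strand. Promoters of 300 bases, from 250 bases before a RefSeq transcript start to 50 after, were available from RefSeq (GRCm38.p6) for 8 of the 10 genes, Tead1 and Tead4 being the others. At least 1 promoter of 7 of these 8 genes held the letters (87.5%), as did those of 4 of 12 further reported targets with a promoter (33.3%) and of 4481 of all 27025 genes (16.6%). The RefSeq start can lie inside the gene as GENCODE bounds it, as for Amotl2 and Lats2. A match is a description of the letters and not evidence of binding. The promoters of Ankrd1 and Amotl2 are shown because these targets moved in opposite directions in osteoblast cultures, and that of Tead2 because it was the only gene of the 8 without a match. Capitals mark CATTCC or GGAATG, and each sequence runs 5′ to 3′ on the strand of its gene: Ankrd1 at chr19:36119795-36120094 on the minus strand, Amotl2 at chr9:102717554-102717853 on the plus strand, and Tead2 at chr7:45215542-45215841 on the plus strand.
Ankrd1: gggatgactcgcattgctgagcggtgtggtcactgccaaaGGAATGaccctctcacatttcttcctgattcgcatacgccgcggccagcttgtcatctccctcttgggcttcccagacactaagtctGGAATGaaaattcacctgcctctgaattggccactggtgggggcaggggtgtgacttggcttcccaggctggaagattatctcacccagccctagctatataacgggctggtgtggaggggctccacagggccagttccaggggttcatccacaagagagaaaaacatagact
Amotl2: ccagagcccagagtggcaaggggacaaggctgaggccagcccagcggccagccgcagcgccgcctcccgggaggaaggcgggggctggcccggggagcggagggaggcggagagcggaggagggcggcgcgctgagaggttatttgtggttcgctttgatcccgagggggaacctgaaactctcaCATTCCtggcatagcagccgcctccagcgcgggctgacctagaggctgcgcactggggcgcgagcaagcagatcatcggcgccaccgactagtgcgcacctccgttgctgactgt
Tead2: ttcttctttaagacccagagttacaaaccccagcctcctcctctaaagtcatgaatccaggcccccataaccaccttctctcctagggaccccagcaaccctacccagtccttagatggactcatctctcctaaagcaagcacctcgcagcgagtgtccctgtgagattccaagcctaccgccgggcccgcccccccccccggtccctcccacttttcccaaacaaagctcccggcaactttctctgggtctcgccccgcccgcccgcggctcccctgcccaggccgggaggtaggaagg
In Ankrd1 the matches begin 210 and 123 bases before the start, and in Amotl2 the match begins 65 bases before it. Ajuba held 2 matches beginning 186 and 164 bases before its start, and Yap1 held 1 beginning 141 bases before.

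Among the 10 genes, the level varied most for Ankrd1, whose group means spanned 22.4-fold from lowest to highest, followed by Tead4 (16.0-fold), Tead2 (11-fold), Amotl2 (5.21-fold) and Tead3 (4.13-fold). Wwtr1 spanned 1.45-fold and Yap1 2.32-fold, the smallest spans under TMM scaling. With library totals alone Wwtr1 spanned 2.44-fold and Yap1 5.33-fold, more than Tead3 (3.51-fold) and Ajuba (4.01-fold). Every gene was detected in every library, with at least 117 counts, so that all 10 passed the filter on low counts in every comparison.

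**Figure D1:**
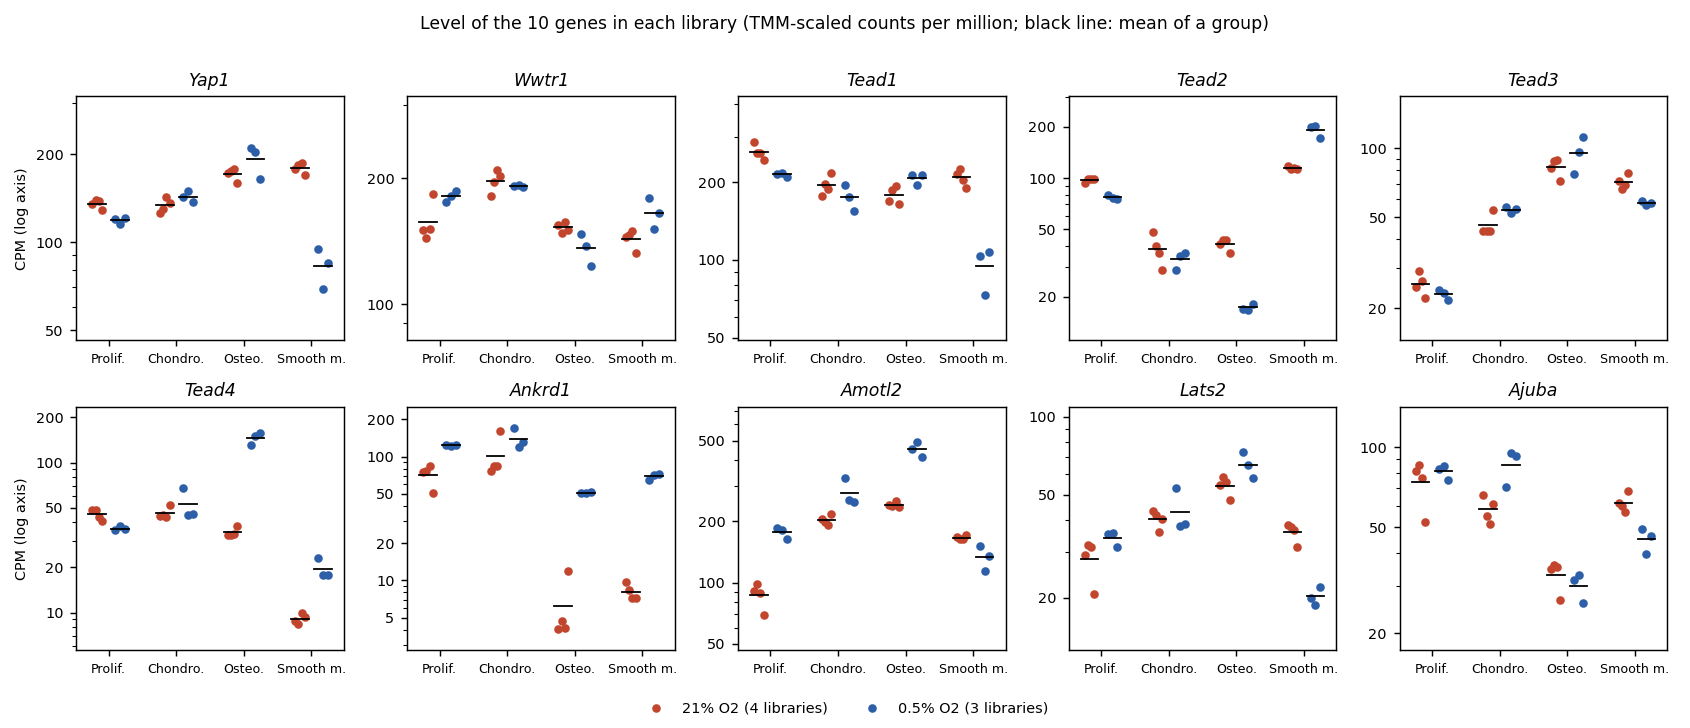
Level of each of the 10 genes in each library, in TMM-scaled CPM on a log axis, by culture; red points are the libraries at 21% O2, blue points those at 0.5% O2, and black lines are group means. Ankrd1 is lowest in normoxic osteoblast and smooth muscle cultures (means of 6.23 and 8.13 CPM), and Tead4 is highest in hypoxic osteoblast cultures (mean of 146 CPM).

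Differentiation was tested by comparing each differentiated group with proliferating cells at the same oxygen level, and the response to oxygen by comparing hypoxic with normoxic cultures of a lineage, with edgeR's quasi-likelihood test and a call at a Benjamini-Hochberg adjusted p under 0.05. Most expressed genes were called in most of these comparisons, so that counts of called members are to be read against the share called among all genes tested. In chondrocyte cultures at 21% O2 the test called 6 of the 10 (74.9% of all genes), with 4 higher (37.7% of all genes) and 2 lower (37.2%). In osteoblast cultures it called 9 (78.7%), with 4 higher (40.9%) and 5 lower (37.8%), and in smooth muscle cultures 8 (79.7%), with 5 higher (40.8%) and 3 lower (38.9%). At 0.5% O2 it called 7 in chondrocyte cultures (69.5%), with 5 higher (34.9%) and 2 lower (34.6%), and 9 in osteoblast cultures (71.3%), with 5 higher (36.2%) and 4 lower (35.1%). It called 9 in hypoxic smooth muscle cultures (70.0%), with 2 higher (33.8%) and 7 lower (36.2%). Between oxygen levels, 8 were called in proliferating cells (65.4%), with 4 higher (33.1%) and 4 lower (32.3%) at 0.5% O2. In chondrocyte cultures these were Amotl2 and Ajuba alone, 2 of 10 (22.2%), both higher (10.4%) and 0 lower (11.8%). In osteoblast cultures 5 were called between oxygen levels (54.3%), with 4 higher (27.0%) and 1 lower (27.3%), and in smooth muscle cultures all 10 (75.6%), with 4 higher (35.4%) and 6 lower (40.2%). With 10 genes these counts are not read as a result about the group, and what follows concerns the size and direction of the changes of single genes. The direction depends on the scaling: with library totals alone, hypoxic smooth muscle cultures had 0 higher and 8 lower against hypoxic proliferating cells and 1 higher and 8 lower against normoxic smooth muscle cultures, while chondrocyte cultures had 2 higher and 5 lower at 21% O2 and 2 higher and 3 lower at 0.5% O2. That scaling moved the log2 change of each member by -1.28 to -1.27 in the comparison of hypoxic smooth muscle with proliferating cells, by -1.37 between oxygen levels in smooth muscle and by -1.34 to -1.33 in their interaction, and this applies to every such value below. With replicates 1 to 3 alone, a choice made after seeing that the fourth normoxic libraries stood apart for several members, the count between oxygen levels went from 2 to 4 in chondrocyte cultures (23.8% of all genes called in that fit) and from 5 to 8 in osteoblast cultures (65.6%, up from 54.3%).

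**Figure D2:**
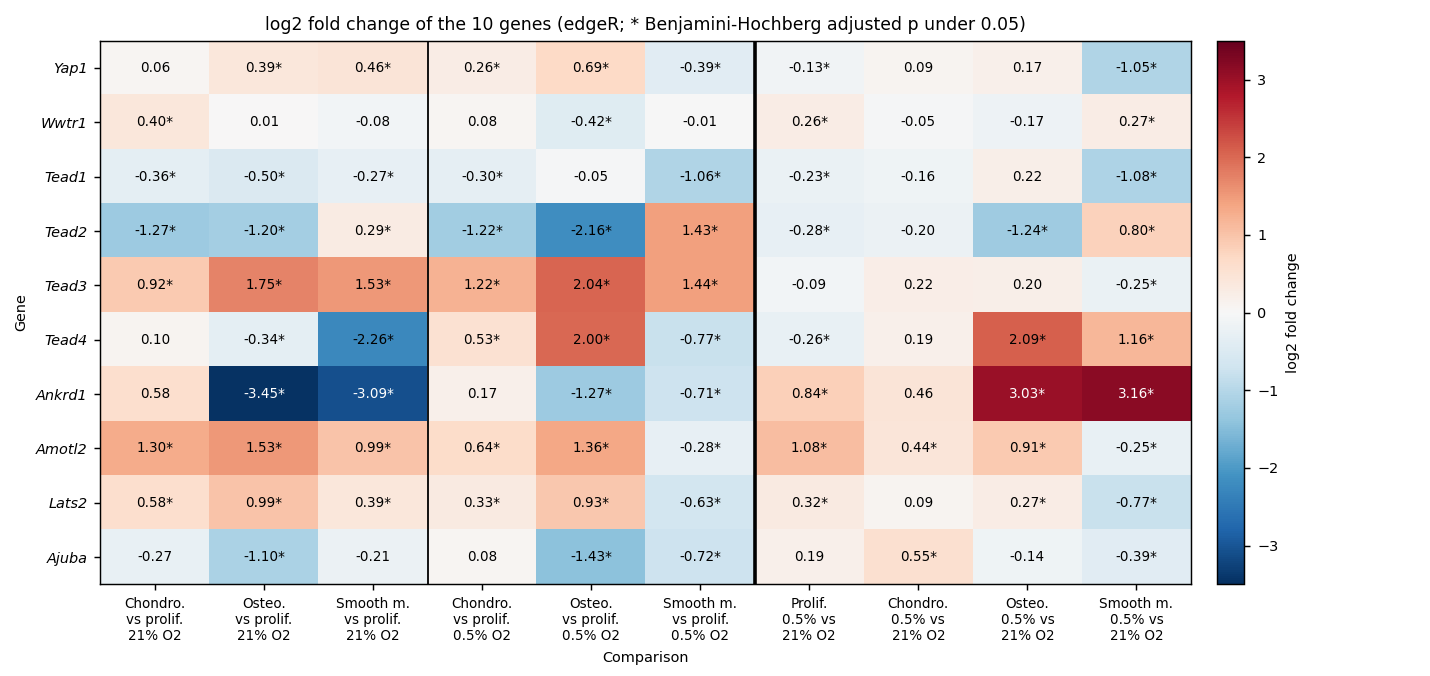
Values of log2 fold change of the 10 genes (rows) in the 10 comparisons between pairs of groups (columns), from edgeR, with asterisks at an adjusted p under 0.05. Ankrd1 has the largest falls, -3.45 and -3.09 in normoxic osteoblast and smooth muscle cultures; scaled by library size alone, positive values turn negative for Wwtr1, Tead2 and Tead4 between oxygen levels in smooth muscle, for Yap1 and Tead4 in normoxic chondrocyte, for Yap1, Wwtr1, Ankrd1, Lats2 and Ajuba in hypoxic chondrocyte and for Wwtr1 in normoxic osteoblast against proliferating cells.

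Yap1 (chr9:7931999-8004596 in GRCm38, minus strand), the founding co-activator of the pathway, was modestly higher than in proliferating cells in osteoblast cultures at both oxygen levels, in normoxic smooth muscle and in hypoxic chondrocyte cultures (log2 0.26, but -0.072 with library totals alone), and lower in hypoxic smooth muscle cultures. It was also called lower in hypoxic than normoxic proliferating cells, at log2 -0.13. The normoxic proliferating libraries had 135, 139, 139 and 129 CPM, the normoxic osteoblast libraries 172, 174, 178 and 159 CPM, and the normoxic smooth muscle libraries 178, 183, 187 and 170 CPM. Neither differentiated group overlapped the proliferating one. The log2 fold changes were 0.39 ± 0.05 (SE; edgeR adjusted p = 9.30e-05) for osteoblast and 0.46 ± 0.05 (edgeR adjusted p = 4.78e-07) for smooth muscle cultures. In the hypoxic smooth muscle libraries Yap1 stood at 95.0, 69.2 and 85.1 CPM, below every other library, and at log2 -1.05 ± 0.10 against normoxic smooth muscle (edgeR adjusted p = 1.69e-07). Under TMM scaling hypoxic osteoblast cultures had the highest mean, 193 ± 24.4 CPM (SD, n = 3), but their libraries overlapped those of both normoxic osteoblast and normoxic smooth muscle cultures.

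Wwtr1 (chr3:57455649-57575910 in GRCm38, minus strand), the gene of the paralogous co-activator TAZ, stayed within a narrow band under TMM scaling and had a Pearson correlation of -0.40 with Yap1 in log2 CPM over the 28 libraries, given as a description. Under that scaling its means were highest in normoxic and hypoxic chondrocyte cultures, 197 ± 11.9 CPM (SD, n = 4) and 192 ± 1.29 CPM (SD, n = 3), which overlapped each other. They were lowest in hypoxic osteoblast cultures, with 147, 138 and 123 CPM, against 175, 181 and 186 CPM in hypoxic proliferating cells, a log2 change of -0.42 ± 0.07 (edgeR adjusted p = 1.34e-04). In normoxic chondrocyte cultures it was called higher by 0.40 ± 0.08 (edgeR adjusted p = 7.53e-04), although its lowest chondrocyte library, at 181 CPM, lay under the highest proliferating one, at 184 CPM. That call did not hold when libraries were scaled by their totals alone (log2 0.05). Between oxygen levels in smooth muscle cultures it was called higher by 0.27 ± 0.08 (edgeR adjusted p = 0.00708), which turned to -1.10 with scaling by library totals. The log2 ratio of Wwtr1 to Yap1 per kilobase of exon, which no library scaling can move, ran from 0.46 ± 0.07 (SD, n = 3) in hypoxic osteoblast to 1.96 ± 0.11 (SD, n = 3) in hypoxic smooth muscle cultures. In normoxic osteoblast and smooth muscle cultures it was 0.79 ± 0.07 and 0.63 ± 0.02 (SD, n = 4 each), and it was above 0 in every group. That sign rests on exon unions of 9257 bases for Yap1 and 4779 for Wwtr1, since the mean CPM of Yap1, not divided by length, exceeded that of Wwtr1 in osteoblast cultures at both oxygen levels and in normoxic smooth muscle cultures.

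Tead1 (chr7:112679318-112906807 in GRCm38, plus strand), which had the most counts of the TEAD genes over all libraries but also has the longest exon union (13570 bases), was highest in normoxic proliferating cells. In hypoxic smooth muscle cultures Tead2 exceeded it, with means of 191 against 94.6 CPM. Its 4 libraries there had 287, 259, 258 and 245 CPM, above every library of the other groups. The log2 change from the proliferating state was -0.36 ± 0.07 in normoxic chondrocyte, -0.50 ± 0.07 in osteoblast and -0.27 ± 0.06 in smooth muscle cultures, each called lower. In hypoxic smooth muscle libraries it was at 104, 73.2 and 107 CPM, about 1.06 lower on the log2 scale than in hypoxic proliferating cells (-1.06 ± 0.12, edgeR adjusted p = 1.08e-05). In hypoxic osteoblast cultures it did not pass the test against hypoxic proliferating cells, at log2 -0.05 ± 0.07, but it was called lower, at -0.28, with library totals alone.

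Tead2 (chr7:45215753-45233644 in GRCm38, plus strand), the TEAD gene best known from early embryos and neural progenitors, separated the cultures. Normoxic proliferating libraries had 93.6, 98.4, 98.3 and 99.1 CPM and hypoxic ones 80.0, 75.9 and 75.7 CPM. Osteoblast libraries had 40.8, 43.3, 43.0 and 36.3 CPM at 21% O2 but 17, 16.6 and 18.2 CPM at 0.5% O2, the lowest of all groups and with no overlap. The log2 fall from the proliferating state was -1.20 ± 0.07 at 21% O2 (edgeR adjusted p = 1.40e-07) and -2.16 ± 0.08 at 0.5% O2 (edgeR adjusted p = 3.70e-12). The difference between these falls was itself called (log2 -0.92 ± 0.10, edgeR adjusted p = 1.22e-06). Chondrocyte cultures fell by similar amounts at both oxygen levels, by 1.27 and 1.22 on the log2 scale, and their difference of 0.09 ± 0.17 did not pass the test. Smooth muscle cultures went the other way, with 118, 114, 115 and 112 CPM at 21% O2 and 199, 202 and 171 CPM at 0.5% O2. The normoxic rise was small but separate from every proliferating library (log2 0.29 ± 0.05, edgeR adjusted p = 4.69e-05). The hypoxic rise (log2 1.43 ± 0.09 against hypoxic proliferating cells) shrank to 0.15 with scaling by library totals, and the rise from normoxic to hypoxic smooth muscle (log2 0.80 ± 0.08) became a fall of -0.57.

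Tead3 (chr17:28331671-28350817 in GRCm38, minus strand), a TEAD gene prominent in the placenta, was higher than in proliferating cells in all 6 comparisons of differentiated cultures. Normoxic proliferating libraries had 24.7, 29.1, 26.3 and 22.1 CPM, chondrocyte libraries 43.6, 43.6, 43.5 and 53.5 CPM, osteoblast libraries 81.8, 88.0, 88.9 and 72.2 CPM and smooth muscle libraries 72.0, 66.4, 69.3 and 77.7 CPM. Osteoblast and smooth muscle libraries overlapped each other but lay above all chondrocyte libraries. The log2 rises at 21% O2 were 0.92 ± 0.09, 1.75 ± 0.10 and 1.53 ± 0.08 in that order of lineages, and at 0.5% O2 they were 1.22 ± 0.08, 2.04 ± 0.12 and 1.44 ± 0.10. Between oxygen levels Tead3 was called in smooth muscle cultures, at log2 -0.25 ± 0.09 (edgeR adjusted p = 0.0181). The rise in hypoxic smooth muscle was 0.16 and not called with scaling by library totals.

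Tead4 (chr6:128224288-128300823 in GRCm38, minus strand), known for its part in the trophectoderm and in muscle progenitors, had the largest oxygen response of the TEAD genes under TMM scaling, in osteoblast cultures. With library totals alone that response was 1.93, and Tead1 in smooth muscle cultures had a larger one, at -2.45. Normoxic osteoblast libraries had 33.0, 33.0, 33.4 and 37.9 CPM, a little under the 48.1, 48.0, 43.6 and 41.0 CPM of proliferating cells. Hypoxic osteoblast libraries had 130, 150 and 157 CPM, against 35.4, 37.7 and 35.9 CPM in hypoxic proliferating cells. The hypoxic osteoblast group was thus above every other library in the series, the next being a hypoxic chondrocyte library at 67.2 CPM. From normoxic to hypoxic osteoblast cultures the log2 rise was 2.09 ± 0.10 (edgeR adjusted p = 4.62e-07). The change on osteoblast differentiation was -0.34 ± 0.08 at 21% O2 and 2.00 ± 0.08 at 0.5% O2, and the difference of 2.39 ± 0.12 was called (edgeR adjusted p = 5.38e-10). Under TMM scaling normoxic smooth muscle cultures had the lowest level, with 8.79, 8.41, 9.89 and 9.30 CPM, a fall of 2.26 ± 0.08 on the log2 scale (edgeR adjusted p = 7.98e-13). Hypoxic smooth muscle libraries had 23.0, 17.8 and 17.7 CPM, a rise of 1.16 ± 0.15 that became -0.20 with scaling by library totals. Fewer cells of a type and less RNA per cell cannot be told apart in such bulk libraries, for this or any other gene.

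Set against each other per kilobase of exon within each library, where scaling cancels, the TEAD genes changed rank between the cultures. In normoxic proliferating cells Tead1 and Tead2 made up 34.5% ± 1.47 and 36.4% ± 2.05 of the summed TEAD level, Tead4 22.4% ± 0.98 and Tead3 6.79% ± 0.64 (SD, n = 4). Hypoxic proliferating cells had nearly the same make-up, with 34.8%, 35.5%, 22.2% and 7.55%. In normoxic osteoblast cultures the shares were more even, with Tead1 at 30.2%, Tead3 at 28.3%, Tead4 at 22.0% and Tead2 at 19.6%. In hypoxic osteoblast cultures Tead4 took 55.1% ± 1.18 and Tead2 4.92% ± 0.33 (SD, n = 3), and no library overlapped those of the normoxic osteoblast group, whose Tead4 share was 20.3% to 25.7%. In smooth muscle cultures Tead2 had the largest share per kilobase, at 45.6% ± 0.43 (SD, n = 4) at 21% O2 and 65.5% ± 3.36 (SD, n = 3) at 0.5% O2, while Tead4 was at 4.82% and 8.87%. The log2 ratio of Tead4 to Tead2 counts was -0.25 ± 0.21 (SD, n = 4) in normoxic and 3.07 ± 0.12 (SD, n = 3) in hypoxic osteoblast cultures. These shares rest on the union of all annotated exons (13570 bases for Tead1, 4788 for Tead2, 6714 for Tead3 and 3598 for Tead4), which can exceed the length of the transcripts used. By mean CPM, not divided by length, Tead1 exceeded Tead2 in normoxic smooth muscle cultures (209 against 115 CPM) and in normoxic proliferating cells (262 against 97.3 CPM). It also exceeded Tead4 in hypoxic osteoblast cultures (207 against 146 CPM), so that the lead of Tead4 there rests on the division by length.

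**Figure D3:**
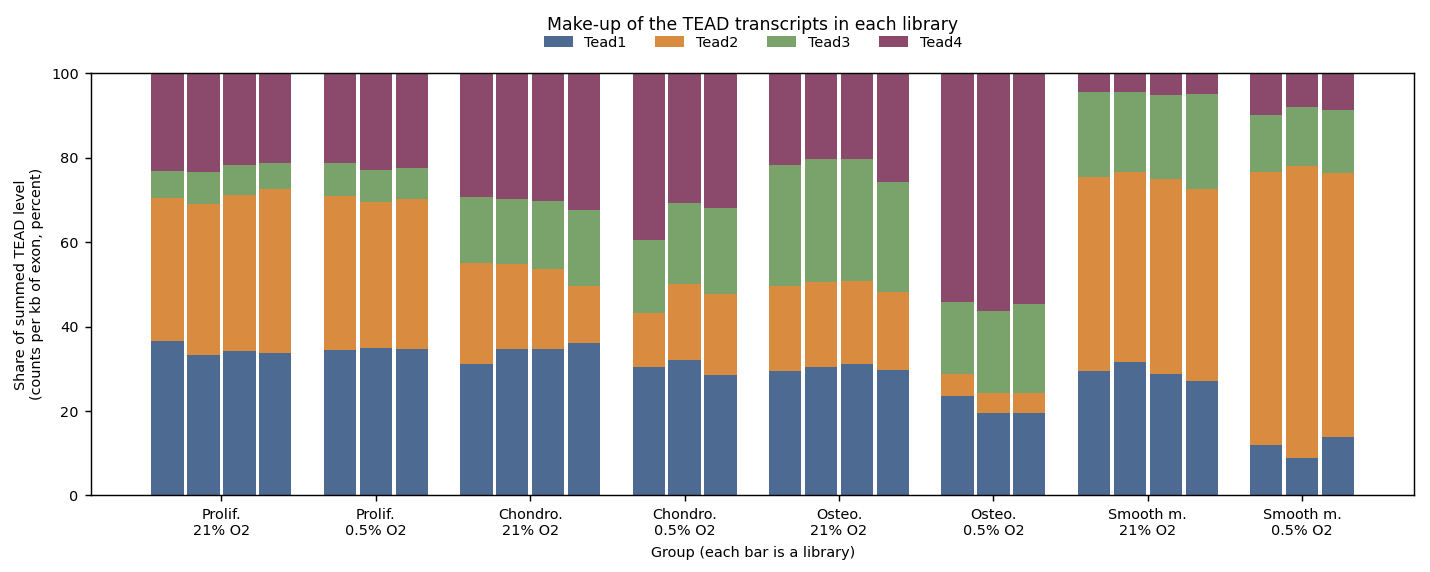
Share of each TEAD gene in the summed TEAD level, in percent of counts per kilobase of annotated exon, with a bar for each library. Tead4 takes 54.1% to 56.4% in the 3 hypoxic osteoblast libraries, and Tead2 takes 62.6% to 69.2% in the 3 hypoxic smooth muscle libraries.

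Ankrd1 (chr19:36111961-36120099 in GRCm38, minus strand), a nuclear ankyrin-repeat protein of muscle and a much used read-out of YAP and TAZ activity, had the widest range. Normoxic proliferating libraries had 74.9, 77.2, 83.6 and 50.6 CPM, normoxic osteoblast libraries 4.09, 4.69, 4.14 and 12 CPM, and normoxic smooth muscle libraries 9.71, 8.41, 7.17 and 7.23 CPM. Both differentiated groups lay far below proliferating cells, and they overlapped each other. The log2 falls were -3.45 ± 0.36 (edgeR adjusted p = 1.37e-05) and -3.09 ± 0.16 (edgeR adjusted p = 7.11e-09). Without the fourth normoxic osteoblast library, at 12 CPM, the osteoblast fall was -4.05. Normoxic chondrocyte libraries had 76.2, 84.5, 84.0 and 161 CPM, and the change of 0.58 ± 0.26 did not pass the test. It did not pass in any of 8 fits that each left out 1 library either (log2 0.28 to 0.70). The fall in osteoblast and smooth muscle cultures was much smaller at 0.5% O2. Hypoxic libraries had 124, 123 and 124 CPM in proliferating cells, 169, 119 and 131 CPM in chondrocyte, 51.0, 50.8 and 51.9 CPM in osteoblast and 64.5, 71.7 and 71.9 CPM in smooth muscle cultures. Osteoblast cultures at 0.5% O2 fell by 1.27 on the log2 scale from hypoxic proliferating cells (SE 0.07, edgeR adjusted p = 1.39e-10), and the difference from the normoxic fall was 2.22 ± 0.43 (edgeR adjusted p = 9.04e-04). Between oxygen levels Ankrd1 rose by 3.03 ± 0.39 in osteoblast cultures (edgeR adjusted p = 4.33e-04), 3.16 ± 0.12 in smooth muscle cultures (edgeR adjusted p = 5.37e-12; 1.78 with scaling by library totals) and 0.84 ± 0.15 in proliferating cells (edgeR adjusted p = 0.00133). The change of 0.46 ± 0.30 in chondrocyte cultures was not called, but it was 0.77 and called without the fourth normoxic chondrocyte library.

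Amotl2 (chr9:102716672-102733418 in GRCm38, plus strand), an angiomotin-family scaffold that binds YAP and restrains it, behaved differently. Normoxic proliferating libraries had 91.1, 98.9, 89.1 and 69.6 CPM, and every other library of the series was higher, although with library totals alone the hypoxic smooth muscle group was the lowest (mean 69.4 CPM). Normoxic chondrocyte, osteoblast and smooth muscle libraries had 192 to 219, 235 to 253 and 163 to 171 CPM, and the log2 rises were 1.297 ± 0.09, 1.53 ± 0.10 and 0.99 ± 0.08. Hypoxic proliferating libraries had 185, 182 and 164 CPM, a rise of 1.08 ± 0.09 over normoxic ones (edgeR adjusted p = 2.15e-06). Hypoxic osteoblast libraries had 457, 490 and 416 CPM, above all others. At 0.5% O2 Amotl2 was higher than at 21% O2 in osteoblast and chondrocyte cultures by 0.91 ± 0.08 and 0.44 ± 0.09. In normoxic osteoblast cultures Amotl2 was thus 1.53 higher and Ankrd1 3.45 lower on the log2 scale. Hypoxic smooth muscle libraries, at 152, 114 and 135 CPM, were the exception, with log2 -0.28 ± 0.10 against hypoxic proliferating cells (edgeR adjusted p = 0.0290), which did not pass the test with DESeq2 (adjusted p = 0.0587) or, in 4 of 6 leave-one-out fits, with edgeR.

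Ccn1 and Ccn2, the secreted matrix proteins also named Cyr61 and Ctgf that are used beside Ankrd1 as read-outs of YAP and TAZ, are no members but bear on it. Ccn2 had 48.1, 54.6, 46.7 and 13.4 CPM in normoxic proliferating, 2012, 1743, 2037 and 2412 CPM in normoxic chondrocyte and 673, 684, 662 and 1076 CPM in normoxic osteoblast libraries. It thus rose by 5.73 ± 0.44 (edgeR adjusted p = 5.52e-06) where Ankrd1 was not called, and by 4.30 ± 0.41 (edgeR adjusted p = 7.25e-06) where Ankrd1 fell. Ccn1 rose by 2.02 ± 0.23 and 2.08 ± 0.30 in the same comparisons. In normoxic smooth muscle cultures Ccn1 rose by 0.75 ± 0.21, Ccn2 was not called at 0.45 ± 0.39, and Ankrd1 fell. In hypoxic osteoblast cultures Ccn1 reached 1230, 1083 and 942 CPM, 1.42 ± 0.27 above normoxic ones, while Ccn2 differed by 0.14 ± 0.17, which was not called. Without the fourth normoxic osteoblast library, at 1076 CPM, Ccn2 was called at 0.34 (edgeR adjusted p = 1.09e-04). Ankrd1 had a Pearson correlation of log2 CPM of 0.04 with Ccn1 and 0.12 with Ccn2 over the 28 libraries, whereas Amotl2 had 0.90 and 0.75. These libraries share groups, depth and scaling, and the correlations are descriptions.

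**Figure D4:**
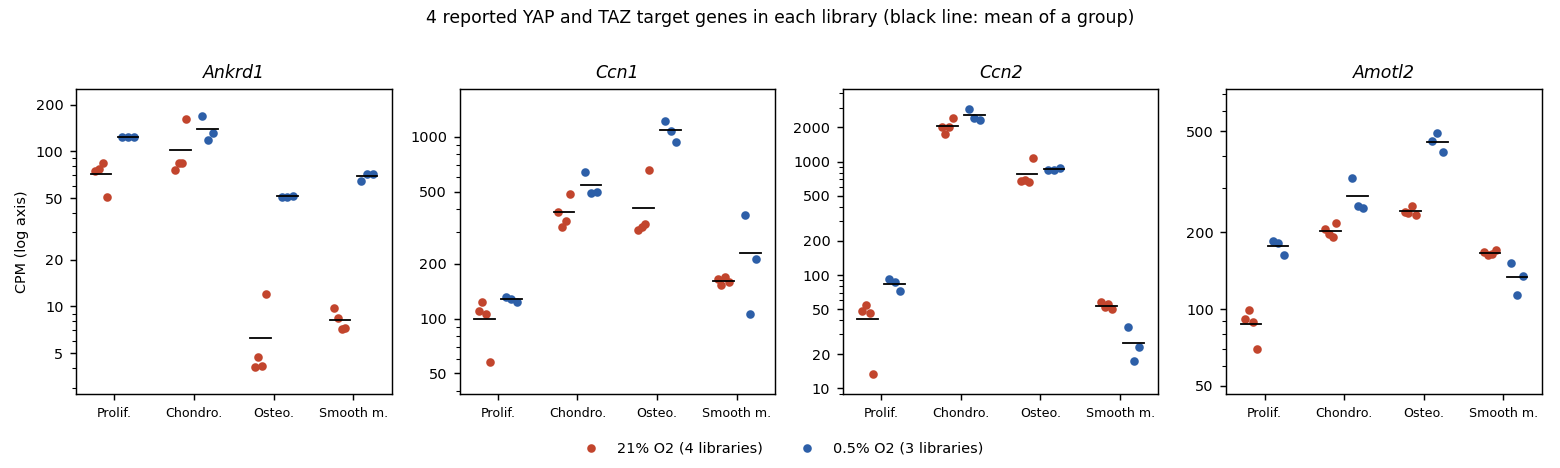
Level of Ankrd1, Ccn1, Ccn2 and Amotl2 in each library, in TMM-scaled CPM on a log axis, with red points at 21% O2, blue points at 0.5% O2 and black lines at group means. In normoxic osteoblast cultures Ankrd1 has a mean of 6.23 CPM against 71.6 CPM in proliferating cells, while Ccn2 has 774 CPM against 40.7 CPM.

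Lats2 (chr14:57689662-57758388 in GRCm38, minus strand), the kinase that phosphorylates YAP and TAZ and is itself their target, was highest in osteoblast cultures at both oxygen levels. Normoxic proliferating libraries had 29.3, 31.9, 31.4 and 20.7 CPM and normoxic osteoblast libraries 54.6, 58.3, 55.9 and 47.7 CPM, without overlap. The rise was 0.99 ± 0.13 on the log2 scale (edgeR adjusted p = 5.72e-05), close to the 0.93 ± 0.10 at 0.5% O2 (edgeR adjusted p = 4.39e-07), and their difference of -0.01 ± 0.18 did not pass the test. Hypoxic smooth muscle libraries, at 19.96, 18.8 and 22.0 CPM, were 0.63 lower than hypoxic proliferating cells (log2 -0.63 ± 0.11, edgeR adjusted p = 4.30e-04). Smaller calls were fragile: in hypoxic chondrocyte cultures the rise of 0.33 ± 0.12 (edgeR adjusted p = 0.0336) was lost when any of several single libraries was left out (0.16 without the first hypoxic chondrocyte library) and was -0.0036 with scaling by library totals. The oxygen response of 0.27 ± 0.10 in osteoblast cultures (edgeR adjusted p = 0.0493) was lost with limma-voom (adjusted p = 0.0509).

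Ajuba (chr14:54567472-54577558 in GRCm38, minus strand), a LIM-domain protein that binds LATS kinases and limits their action on YAP, fell in osteoblast cultures at both oxygen levels. Normoxic proliferating libraries had 81.6, 85.8, 76.6 and 52.1 CPM and normoxic osteoblast libraries 34.8, 35.9, 35.5 and 26.5 CPM, while hypoxic ones had 82.9, 85.0 and 75.2 CPM and 31.6, 33.0 and 25.8 CPM. The log2 falls were -1.10 ± 0.15 (edgeR adjusted p = 1.04e-04) and -1.43 ± 0.10 (edgeR adjusted p = 3.18e-09), and the difference of -0.28 ± 0.21 did not pass the test. In osteoblast cultures the 2 oxygen levels overlapped. In chondrocyte cultures Ajuba was at 66.0, 55.2, 51.2 and 61.1 CPM at 21% O2 and 70.7, 94.7 and 92.5 CPM at 0.5% O2, a rise of 0.55 ± 0.12 (edgeR adjusted p = 0.00837). Its changes of -0.27 and -0.21 in normoxic chondrocyte and smooth muscle cultures were not called, but became -0.40 and -0.36 and were called without the fourth normoxic proliferating library.

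The oxygen dependence of differentiation, tested as the hypoxic change minus the normoxic change, was called for 5 of the 10 genes in chondrocyte cultures (43.5% of all genes), with 3 higher (21.6%) and 2 lower (21.9%). It was called for 6 in osteoblast cultures (54.2%), with 4 higher (28.9%) and 2 lower (25.3%), and for 8 in smooth muscle cultures (70.4%), with 3 higher (34.9%) and 5 lower (35.5%), which became 1 higher and 8 lower with scaling by library totals. In chondrocyte cultures the largest was Amotl2, at log2 -0.63 ± 0.15 (edgeR adjusted p = 0.00259): it rose by 1.297 at 21% O2 and by 0.64 at 0.5% O2, where proliferating cells had a higher level to begin with. The other 4 chondrocyte calls were fragile: of 14 fits that each left out 1 library, 12 changed the call of Tead3, 9 that of Wwtr1, 8 that of Tead4 and 3 that of Yap1. In osteoblast cultures the largest were Tead4 (2.39) and Ankrd1 (2.22), followed by Tead2 (-0.92), Tead1 (0.49), Wwtr1 (-0.38) and Yap1 (0.35). In smooth muscle cultures they were, under TMM scaling, Ankrd1 at 2.35 ± 0.18, Tead4 at 1.47 ± 0.15 and Amotl2 at -1.29 ± 0.14. The order changed with scaling by library totals: Amotl2 (-2.62), Lats2 (-2.38), Yap1 (-2.21) and Tead1 (-2.14) were then the largest, and Ankrd1 was at 1.01. Tead2 in smooth muscle cultures was at 1.11 ± 0.09 under TMM, which turned to -0.22 with scaling by library totals, and Tead4 was then at 0.13 and not called.

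The other genes of the pathway were described from 3 lists: 27 genes of the kinase cascade and its regulators, 8 nuclear partners, of which 6 were expressed enough to be tested, and 19 further reported targets, Ccn1 and Ccn2 among them. Their median log2 changes are given beside those of all genes tested, which lay between -0.12 and 0.07. Of the 27 cascade genes, 7 were higher and 10 lower in normoxic chondrocyte (37.7% and 37.2% of all genes), 10 and 10 in osteoblast (40.9% and 37.8%) and 10 and 13 in smooth muscle cultures (40.8% and 38.9%), with medians of -0.07, -0.11 and -0.08. With scaling by library totals 5 were higher and 19 lower in chondrocyte cultures, and the smooth muscle median was 0.00. Fat4, the giant cadherin upstream of the cascade, had the largest rise in each, from 4.28 CPM in proliferating cells to 98.3, 388 and 220 CPM. In hypoxic smooth muscle cultures 5 cascade genes were higher and 18 lower than in hypoxic proliferating cells (33.8% and 36.2% of all genes; median -0.65), which became 1 and 26 (median -1.93) with scaling by library totals, and Fat4 was at 8.08 CPM against 220 CPM in normoxic ones. In hypoxic against normoxic osteoblast cultures 14 were higher and 5 lower (27.0% and 27.3% of all genes; median 0.25), which became 9 and 6 (median 0.10) with scaling by library totals. There the MST adaptor Sav1 rose from 130 to 329 CPM (log2 1.34 ± 0.09, edgeR adjusted p = 3.14e-06) and Fat4 fell from 388 to 106 CPM.

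Among the nuclear partners, Vgll3, which competes with YAP and TAZ for TEAD factors, had the largest rise in normoxic osteoblast and smooth muscle cultures, from 50.4 CPM to 204 and 338 CPM. All 6 tested partners rose in normoxic chondrocyte cultures (37.7% of all genes; median 1.06), and 5 with scaling by library totals (median 0.72), led by Runx3, from 18.5 to 77.0 CPM. In normoxic osteoblast cultures 3 rose and 1 fell (40.9% and 37.8% of all genes), and in normoxic smooth muscle cultures 4 and 1 (40.8% and 38.9%). Against hypoxic proliferating cells 3 rose and 2 fell in hypoxic smooth muscle cultures (33.8% and 36.2%). Between oxygen levels in smooth muscle 1 rose and 4 fell (35.4% and 40.2%). Both of these became 0 and 6 with scaling by library totals. Runx1 fell from 53.4 to 18.3 CPM in normoxic and from 59.0 to 13.6 CPM in hypoxic osteoblast cultures. Of the 19 further targets, 12 rose in each normoxic lineage (37.7%, 40.9% and 40.8% of all genes), while 5, 4 and 3 fell in chondrocyte, osteoblast and smooth muscle cultures (37.2%, 37.8% and 38.9%), with medians of 0.78, 1.17 and 0.73. With scaling by library totals 11 rose and 7 fell in chondrocyte cultures, with a median of 0.44. At 0.5% O2, 13 rose and 5 fell in chondrocyte cultures (34.9% and 34.6% of all genes), and 11 rose and 4 fell in osteoblast cultures (36.2% and 35.1%). In hypoxic smooth muscle cultures 1 rose and 12 of the 18 tested fell (33.8% and 36.2%), with a median of -0.75. With scaling by library totals the latter became 1 and 15, with a median of -2.03. Axl, a receptor tyrosine kinase, fell from 1050 to 250 CPM in normoxic chondrocyte cultures and to 329 CPM in smooth muscle cultures. Igfbp3, an IGF-binding protein, was 3.26 ± 0.07 higher in hypoxic than normoxic proliferating cells (edgeR adjusted p = 3.57e-13), from 13.5 to 125 CPM. F3, the coagulation initiator tissue factor, rose from 50.3 to 248 CPM between normoxic and hypoxic osteoblast cultures. Ccdc80, a matrix protein, fell from 607 to 6.14 CPM between normoxic and hypoxic smooth muscle cultures.

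The genes most alike to each member in log2 CPM over the 28 libraries were looked up among 13207 named genes, as a description of these libraries, which share groups, depth and scaling. Ankrd1 was closest to Ets1 (Pearson r = 0.97), Car12 (0.96) and Baalc (0.94). Tead4 was closest to Gclc (0.98), Lpin3 (0.93) and Sgk1 (0.92), and Tead2 to Bcl7c (0.94), Gtf2ird1 (0.94) and Rph3al (0.93). Amotl2 was closest to Sik1 (0.94), Slc44a2 (0.94) and Ppp1r3c (0.94), Lats2 to Tns1 (0.95), Adamts1 (0.94) and Lnpep (0.94), and Tead3 to Casp12 (0.96), Pcolce (0.95) and Lima1 (0.95). Yap1 was closest to Btbd6 (0.96), Zranb1 (0.96) and Ncoa2 (0.95), Tead1 to Atf7ip (0.97), Pbrm1 (0.96) and Mcm3ap (0.95), Wwtr1 to Slc31a1 (0.88), Dusp8 (0.81) and Acsbg1 (0.80), and Ajuba to Dusp3 (0.90), Zbtb18 (0.87) and Gnb4 (0.87). Among the members, Tead2 ran against Lats2 (-0.85), Amotl2 (-0.82) and Tead4 (-0.78), and Amotl2 ran with Lats2 (0.84).

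Near-identical copies of members elsewhere in the genome were not searched for. Genes that overlap members in the GENCODE M21 annotation had few counts, at most 717 in all libraries for an opposite-strand gene of Yap1, which itself had 124326. In the authors' deposited tables of the 10 comparisons, the 73 member changes called by edgeR all had the same sign, and the authors' deposited p-value, which is not stated to be adjusted or unadjusted, was under 0.05 for 72 of them. The authors' deposited tables differed from the edgeR log2 fold changes by at most 0.20.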

How the data were processed

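The authors aligned reads to mm10 (GRCm38) and deposited raw counts per gene for 28 libraries, with HISAT2 2.0.5, StringTie 1.3.3b and featureCounts 1.5.0-p3 per the submitters' processing notes; a stranded kit is stated per the labels, and the strand setting of the counting is not given in the sources used here. The authors also deposited 10 tables of their own comparisons with log2 fold changes and p-values, used here only to set beside the edgeR results; 70 other per-library columns in them were not used. Each comparison was fitted on its own groups with edgeR 4.0.16 (R 4.3.3): TMM scaling, filterByExpr with a minimum count of 10, the robust quasi-likelihood test, and Benjamini-Hochberg adjustment over all genes tested. Oxygen dependence was an interaction term over the 4 groups of a lineage and its proliferating cells. CPM were TMM-scaled over all 28 libraries, and levels were compared between genes per kilobase of the GENCODE M21 exon union. Alternatives were library size alone, library size without mitochondrially encoded genes and Rn7sk, DESeq2 1.42.0, limma-voom 3.58.1, no filter on low counts, a fit over all 8 groups, the replicate number as a block, leaving out each library and, chosen after seeing the data, replicates 1 to 3 only. The scripts were tested on simulated data. No library pair was close enough to be a repeat deposit. Correlations were of log2(CPM + 0.5). The members and lists were chosen with earlier results of these data known. Beside the members, named genes are the gene with the largest called change in each direction in each list and comparison with a mean count of at least 10 in both groups, Ccn1 and Ccn2, and the 3 genes most alike to each member. A gene that this rule names in the list of cascade genes is not reported here. Replicate numbers are shared between groups in the labels, but same-numbered libraries did not deviate together (correlations of -0.057 to 0.081), so no pairing was used.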

Additional observations from a re-analysis of the deposited data

Results flagged for a closer look

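Of the 40 sets of 4 normoxic libraries, 10 genes in 4 groups, 7 held a library that stood apart from the other 3 by more than Dixon's 95% critical value, and chance gives about 1 in 20. In the fourth normoxic chondrocyte library Tead3 was high at 53.5 CPM, Tead4 at 51.8 CPM and Ankrd1 at 161 CPM. In the fourth normoxic osteoblast library Tead4 was high at 37.9 CPM and Ankrd1 at 12 CPM, while Ajuba was low at 26.5 CPM. The first normoxic proliferating library was low in Tead2, at 93.6 CPM.

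The change on differentiation differed between oxygen levels by the interaction test for 19 of 30 combinations of gene and lineage, against 43.5%, 54.2% and 70.4% of all genes in chondrocyte, osteoblast and smooth muscle cultures. In chondrocyte cultures the differences, hypoxic minus normoxic on the log2 scale, were 0.23 for Yap1, -0.29 for Wwtr1, 0.33 for Tead3, 0.46 for Tead4 and -0.63 for Amotl2. Leaving out single libraries changed the call of Tead3 in 12 of 14 fits, of Wwtr1 in 9, of Tead4 in 8 (0.25 to 0.57) and of Yap1 in 3. In osteoblast cultures they were 0.35 for Yap1, -0.38 for Wwtr1, 0.49 for Tead1, -0.92 for Tead2, 2.39 for Tead4 and 2.22 for Ankrd1. In smooth muscle cultures, which rest on the 3 hypoxic libraries that stand apart, they were -0.87 for Yap1, -0.81 for Tead1, 1.11 for Tead2, 1.47 for Tead4, 2.35 for Ankrd1, -1.29 for Amotl2, -1.05 for Lats2 and -0.54 for Ajuba. The part of mitochondrial RNA or of the missing smooth muscle markers in these values was not tested.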

How the results depend on the processing

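Of 130 combinations of member and comparison, DESeq2 kept the call and direction of 127, limma-voom 129, no filter on low counts 125 and the fit over all 8 groups 123. Library size alone kept 104 and library size without mitochondrially encoded genes and Rn7sk 107, with 10 reversed in each. The reversed values changed sign and were called under TMM or under the other scaling. With library size alone Ankrd1 and Ajuba in hypoxic chondrocyte and Wwtr1 in normoxic osteoblast cultures also changed sign. They were called under neither scaling and are not counted as reversed. In chondrocyte cultures at 21% O2, Yap1 was -0.29 and Tead4 -0.25 under both scalings, and at 0.5% O2 Yap1 was -0.072 and -0.075, Wwtr1 -0.25 and -0.26, and Lats2 -0.0036 and -0.0064. Between oxygen levels in smooth muscle Wwtr1 was -1.10 and -0.90, Tead2 -0.57 and -0.37, and Tead4 -0.20 and -0.00089. Among genes of the lists, which are no members, Runx2 was -0.52 and -0.31 in smooth muscle against proliferating cells at 0.5% O2, and between oxygen levels in smooth muscle Wbp2 was -0.67 and -0.47 and Gadd45a -0.071 with library size alone. The smooth muscle interaction was -1.28 and -1.08 for Wwtr1 and -0.22 and -0.022 for Tead2. With library size alone the median log2 change of all genes was -0.35 in chondrocyte cultures at 21% and 0.5% O2, -1.35 in hypoxic smooth muscle and -1.49 between oxygen levels in smooth muscle. The share of higher among called genes moved from 50.3% to 34.7% and from 50.2% to 31.8% in chondrocyte, from 50.8% to 38.2% in hypoxic osteoblast and from 48.3% to 15.0% in hypoxic smooth muscle cultures. Between oxygen levels it moved from 46.9% to 31.8% in chondrocyte, 49.6% to 36.9% in osteoblast and 46.8% to 15.6% in smooth muscle cultures, and from 49.6% to 16.6% in the smooth muscle interaction.

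With replicates 1 to 3 only, the members called between oxygen levels went from 2 to 4 in chondrocyte cultures (23.8% of all genes) and from 5 to 8 in osteoblast cultures (65.6%), and with the fit over all 8 groups the chondrocyte interaction went from 5 to 3 (34.7%); the cause was not tested. Leaving out single libraries gave 6 to 7, 9 to 9 and 8 to 9 members called in chondrocyte, osteoblast and smooth muscle cultures at 21% O2 and 6 to 8, 9 to 9 and 8 to 9 at 0.5% O2. It gave 6 to 9, 2 to 4, 4 to 8 and 9 to 10 between oxygen levels in proliferating, chondrocyte, osteoblast and smooth muscle cultures, and 2 to 6, 6 to 7 and 8 to 8 for the interactions. Without the fourth normoxic osteoblast library, Wwtr1 (-0.18), Tead1 (0.18) and Ajuba (-0.23) were called between oxygen levels in osteoblast cultures, and the interaction of Ankrd1 was 2.78. Without the fourth normoxic chondrocyte library Tead3 was called at 0.30 between oxygen levels. Without the second hypoxic smooth muscle library, Amotl2 was not called between oxygen levels (-0.17).

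With the replicate block, 122 of the 130 kept their call and direction. Between oxygen levels the block added Tead3 (0.30) and Ankrd1 (0.76) and lost Ajuba (0.57, edgeR adjusted p = 0.0709) in chondrocyte cultures, and lost Tead3 (-0.20) in smooth muscle cultures. It added Tead1 (0.19) and Ajuba (-0.24) in osteoblast cultures. Every member had at least 117 counts in each library.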
